A study of Mus musculus with 31 samples.

Results

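The lungs described here came from 5 mice taken 24 h after an injection into the tail vein, of 31 mice in the whole series. They are all the arrays labelled 24 h, 3 from mice given oleic acid and 2 from mice given physiological serum (saline), and every gene on the array was considered. All were female C57BL/6 mice aged 6 weeks, anaesthetised with xylazine and ketamine. The treated mice received oleic acid at 1.2 µl per g of body weight and the controls saline, each in a volume of 200 µl, and no allele or other agent is named in the labels. Total RNA of lung was labelled with Cy3 and hybridised to 1 array per mouse, so each array is a separate animal and the number of arrays limits the precision. The series asks how the lung transcriptome changes during acute lung injury, and here the question is what still differed 1 day after the injury.

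Oleic acid is a fatty acid that damages the endothelium of the lung capillaries when it reaches them through the veins. Fluid and protein then leak into the alveoli, neutrophils enter the lung, and alveolar type 2 cells, which make surfactant, later restore the alveolar lining. In mice the lung also keeps a circadian clock, in which Arntl (BMAL1) and Clock activate the Per, Cry and Nr1d genes and the factors Dbp, Tef and Hlf, which feed back on the activators. In whole lung, fewer cells of a type and less RNA per cell cannot be told apart.

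At 24 h few transcripts passed the test between oleic acid and saline lungs. Of 29264 features tested (16663 with a gene symbol), 4 had an adjusted p under 0.05 in limma, which is 0.0137% of all. They were 2 that were higher and 2 that were lower in oleic acid lungs, 0.00683% of all in each direction, and each was at or below background in 1 of the groups. No gene that lay well above background on all 5 arrays passed, and no member of the 42 gene lists on inflammation, stress, lipids, barrier and cell types passed. At an unadjusted p under 0.05 there were 405 higher and 931 lower features, 1.38% and 3.18% of all; among the 14446 genes with a symbol that lay above background on all 5 arrays the shares were 0.928% and 3.56%. The median standard error of a log2 difference was 0.305. The 4 calls became 9 without oleic acid replicate 1, 9 without oleic acid replicate 2 and 4 without oleic acid replicate 3. Without either saline array the count also rose. Such a fit rests on 1 saline mouse of 24 h, so its count is not given here and is not read as a result. The median difference over all features was -0.041 without saline replicate 1 and -0.29 without saline replicate 2. The deposited table of the authors gave 0 calls with limma, with 1106 features at an unadjusted p under 0.05 and a lowest adjusted p of 0.168. With median centring 4 were called, 1 higher and 3 lower, and after quantile normalization 2, both lower, of which 1 and 0 were among the 4 calls.

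The arrays themselves stood unequally far apart. Over the 14446 genes with a symbol above background on all 5 arrays, the SD of the log2 difference was 0.505 between the 2 saline arrays, and 750 genes differed at least 2-fold between them. Saline replicate 2 lay closer to each oleic acid array, with SDs from 0.341 to 0.357, than to the other saline array. Saline replicate 1 lay 0.417 to 0.628 from the oleic acid arrays, and the oleic acid arrays lay 0.312 to 0.427 from each other. Lyz2, the lysozyme of macrophages and alveolar type 2 cells, had a level of 3.35 and 5.26 with saline and 5.29, 4.81 and 5.44 with oleic acid, with overlap. Its level on saline replicate 1 was below those of the other 4 arrays. All 5 arrays lay on 1 slide, their spike-in slopes were 1.03 to 1.06, and 54.2% to 62.3% of spots were well above background.

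**Figure D1:**
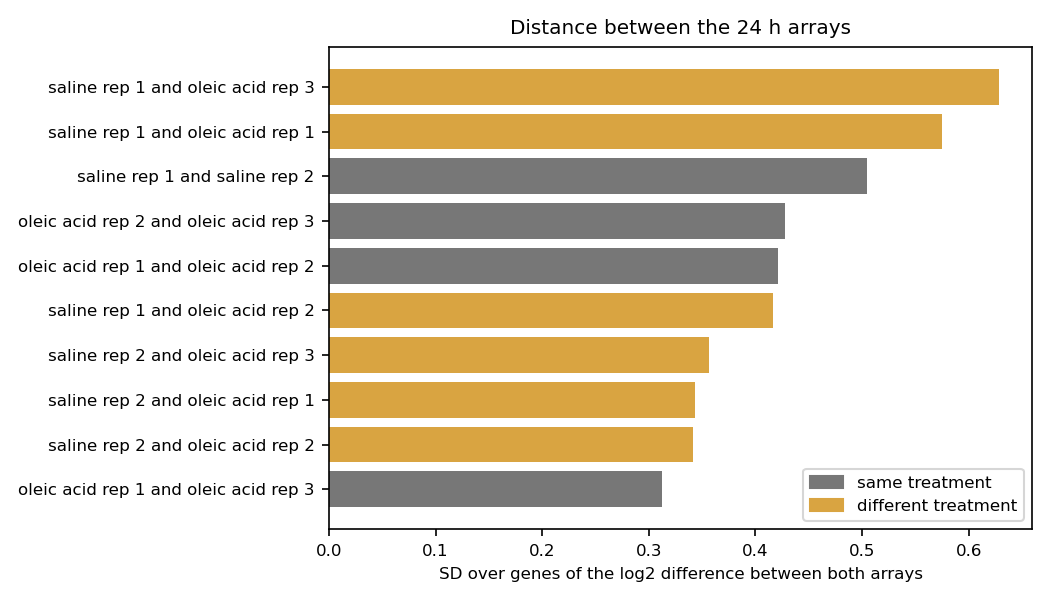
Bars show, for each of the 10 pairs of 24 h arrays, the SD over 14446 genes of the log2 difference between both arrays, in grey for pairs of the same treatment and in ochre for pairs of different treatments. The 3 pairs of saline replicate 2 with an oleic acid array lie at 0.341 to 0.357, below the pair of saline arrays at 0.505.

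Levels are log2 processed signals less the 75th percentile of each array, and differences are oleic acid minus saline on that scale. With this scaling the median difference over all features was -0.12 and 35.8% of features were above 0 (48.7% after quantile normalization, 56.8% with median centring and 48.8% in the deposited table). The median was -0.011 after quantile normalization, 0.054 with median centring, -0.17 with normexp and -0.0086 in the deposited table. The shift differed with brightness: from the dimmest to the brightest of 4 equal sets of features the median was -0.21, -0.11, -0.052 and -0.16. Among the 14446 genes with a symbol and above background on all 5 arrays the median was -0.088, 38.1% were above 0, and the groups did not overlap for 6.08% that were higher and 17.8% that were lower. Over all features with 5 values these shares were 6.11% and 15.2%. These are the background for the counts and medians of gene lists, none of whose members passed. The defining lung genes Sftpc, Ager and Cdh5 were well above background on all 5 arrays.

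The strongest call was a probe for an intergenic transcript of chromosome 15. Its levels were -1.44 and 0.20 with saline and -5.48, -4.92 and -5.11 with oleic acid, with all oleic acid arrays below saline, the signal being above background on 2 of 5 arrays. It was at least 13.7-fold lower with oleic acid (limma adjusted p = 0.0186). Such bounds set the brighter group against the dimmest signal called above background on each array of the other group. They hold for the main scaling only. A probe for the expressed sequence tag AA267875 was at -2.95 and -3.35 with saline and -6.36, -5.61 and -4.63 with oleic acid, with all oleic acid arrays below saline, the signal being above background on 2 of 5 arrays, at least 2.35-fold lower (limma adjusted p = 0.0389). The groups did not overlap for either probe. A probe for the clone B130024M06Rik on chromosome 19 was at -6.10 and -5.58 with saline and -3.34, -2.09 and -3.72 with oleic acid, with all oleic acid arrays above saline, the signal being above background on 3 of 5 arrays, at least 2.12-fold higher (limma adjusted p = 0.0389). Zfand4, a zinc finger protein with a ubiquitin-like domain (named Anubl1 on the array), was at -5.99 and -5.48 with saline and -3.51, -4.06 and -3.57 with oleic acid, with all oleic acid arrays above saline, the signal being above background on 2 of 5 arrays. Its adjusted p in limma was 0.0389. No bound is given for it, because only 2 of the 3 oleic acid arrays were above background. None of the 4 was called with all 31 arrays, with slide as a fixed term or in the deposited table. Among the 3 without a gene symbol, none was called with only the 5 arrays of 24 h, where Zfand4 was not tested. The main filter could keep the 3 probes without a gene symbol through their brighter group alone, so their adjusted p carries that limit. With a filter on all 5 arrays of 24 h none of the 4 was tested and no feature was called. In the order given, the log2 differences of the 4 were -4.55, -2.38, 2.79 and 2.02 with the main scaling. They were -2.32, -0.72, 0.42 and 0.075 with normexp, and -1.06, -0.59, 1.26 and 0.43 in the deposited table. With the saline arrays of 18 h and 24 h together as controls they were -2.70, -1.71, 3.10 and 1.08. Of the 4, only the probe for B130024M06Rik was then called. The saline arrays of 18 h lay on another slide. The 3 called probes with no gene symbol are shown because their target is known only by its sequence. In mm9 they lie at chr15:100905368-100905427 on the minus strand, chrY:2536879-2536938 and chr19:41996816-41996875 on the plus strand, and 40.0%, 41.7% and 35.0% of their bases are G or C. The position on Y is the one the array design lists. Since all mice were female, the source of the signal of that probe is not known.
A_30_P01017903: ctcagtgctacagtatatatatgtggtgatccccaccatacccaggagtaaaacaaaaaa
A_55_P2053467: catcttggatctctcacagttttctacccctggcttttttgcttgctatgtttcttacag
A_55_P2398089: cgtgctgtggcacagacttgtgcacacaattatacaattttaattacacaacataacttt

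Of 29100 features with 5 values, 131 were well above background on both saline arrays and on no oleic acid array, and 99 had the opposite pattern. A gene symbol was attached to 29 and 32 of them, and the called probes with no gene symbol are among the others. The filter could keep such features through their brighter group alone, so these counts are a description with no test. Ripk2, a kinase that carries signals from the NOD receptors for bacterial cell wall, was at -4.39 and -6.17 with saline and -3.71, -3.15 and -3.73 with oleic acid, with all oleic acid arrays above saline, the signal being above background on 3 of 5 arrays, at least 1.52-fold higher, with an adjusted p in limma of 0.860. L3mbtl4, a reader of methylated histones, was at -3.24 and 0.12 with saline and -6.60, -6.08 and -6.79 with oleic acid, with all oleic acid arrays below saline, the signal being above background on 2 of 5 arrays, at least 7.12-fold lower, with an adjusted p in limma of 0.429. Its level on saline replicate 1 was well below that on saline replicate 2.

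Among genes above background on all 5 arrays, the 12 with the smallest unadjusted p in each direction did not pass and are given as values. Fbxl2, a subunit of ubiquitin ligases, was at -3.65 and -3.45 with saline and -2.39, -2.78 and -2.78 with oleic acid, with all oleic acid arrays above saline, and a difference of 0.90 (95% interval 0.49 to 1.31, unadjusted p = 0.000195). Its adjusted p in limma was 0.496. Rgs5, a regulator of G protein signalling typical of pericytes, was at -3.68 and -3.17 with saline and -2.63, -1.57 and -2.25 with oleic acid, with all oleic acid arrays above saline, and a difference of 1.27 (95% interval 0.53 to 2.02, unadjusted p = 0.00205). Ap2b1, a subunit of the clathrin adaptor, was at 0.46 and 0.032 with saline and 1.06, 1.1 and 1.23 with oleic acid, with all oleic acid arrays above saline, and a difference of 0.88 (95% interval 0.35 to 1.42, unadjusted p = 0.00262). Trim63, a ubiquitin ligase of striated muscle, was at -2.92 and -2.65 with saline and -1.20, -1.77 and -1.91 with oleic acid, with all oleic acid arrays above saline. Ppbp, a chemokine stored in platelets, was at 0.41 and 0.41 with saline and 1.61, 0.96 and 1.26 with oleic acid, with all oleic acid arrays above saline, and a difference of 0.87 (95% interval 0.26 to 1.48, unadjusted p = 0.0075). The other differences on the higher side were Dock8 at 0.99, Zfpm2 at 0.96, Sfrp4 at 0.79, Sh3rf2 at 0.76, Slc25a32 at 0.66, Rsl1 at 0.56 and Cenpk at 0.53.

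On the lower side, Cst8, a cystatin, was at 1.51 and 2.27 with saline and 1.12, 0.85 and 0.12 with oleic acid, with all oleic acid arrays below saline, and a difference of -1.19 (95% interval -1.74 to -0.65, unadjusted p = 0.00019). Cdh13, a cadherin anchored in the membrane of endothelial and smooth muscle cells that binds adiponectin, was at 2.62 and 2.62 with saline and 1.83, 2.14 and 2.03 with oleic acid, with all oleic acid arrays below saline, and a difference of -0.62 (95% interval -0.94 to -0.30, unadjusted p = 0.00075). Mapk10, a stress kinase of the JNK family, was at -0.52 and -0.55 with saline and -1.32, -1.03 and -1.31 with oleic acid, with all oleic acid arrays below saline, and a difference of -0.68 (95% interval -1.04 to -0.33, unadjusted p = 0.000726). For Cdh13 and Mapk10 the saline arrays were close together. Fam162b was at 2.81 and 2.75 with saline and 1.93, 1.84 and 2.32 with oleic acid, with all oleic acid arrays below saline, and a difference of -0.75 (95% interval -1.13 to -0.38, unadjusted p = 0.000488). Sgms1, which makes sphingomyelin, was at 4.08 and 3.86 with saline and 3.25, 3.45 and 3.36 with oleic acid, with all oleic acid arrays below saline. The other differences were -1.42 for Olfr521, -1.26 for Chtf18, -0.87 for Spink4, -0.77 for Meis2, -0.71 for Mc5r, -0.46 for Mapt and -0.45 for Col16a1. Without saline replicate 1, which leaves 1 saline mouse of 24 h, the difference was -1.57 for Cst8 and -2.13 for Chtf18. Apart from Cst8 and Chtf18, the other 22 genes passed in none of the 23 other fits tried.

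**Figure D2:**
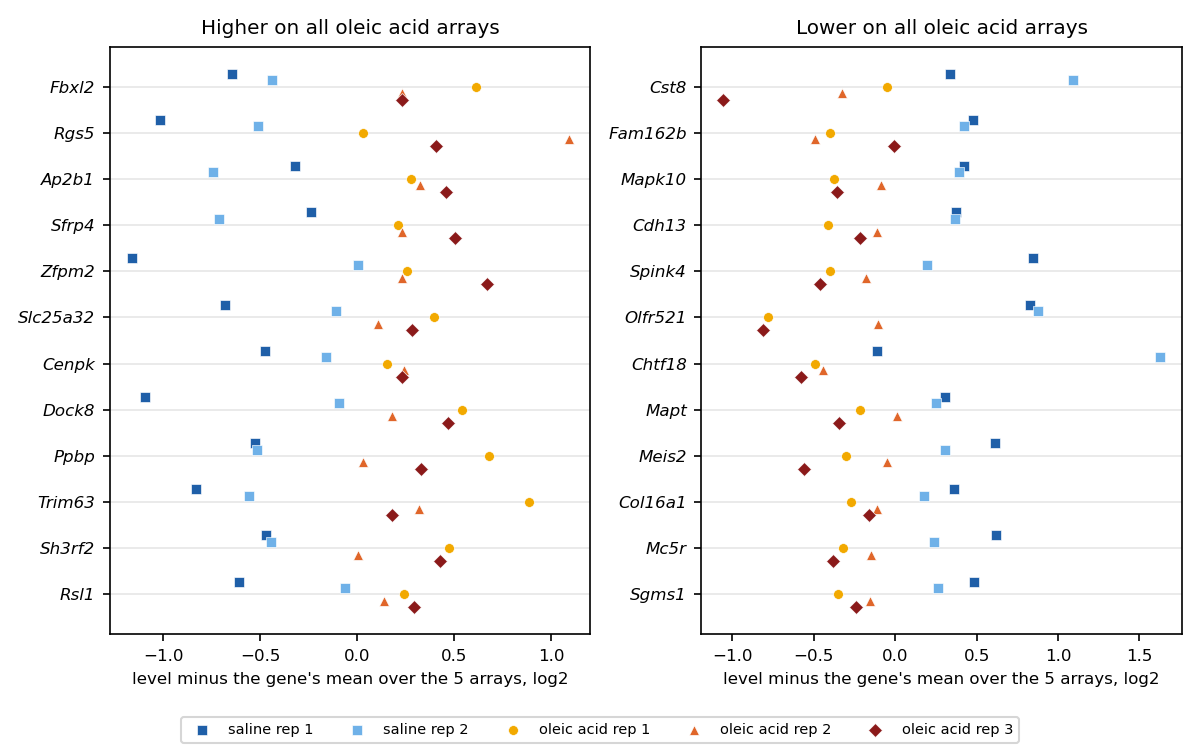
Each row is 1 gene and each point 1 array, as its level minus the mean of the gene over the 5 arrays (log2), for the 12 genes of smallest unadjusted p that were higher (left) or lower (right) on all oleic acid arrays. Cdh13 and Mapk10 show saline points close together and apart from the oleic acid points; in Chtf18 saline replicate 2 lies far above the other 4 arrays.

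The oleic acid arrays were not alike in their clock genes. Dbp, a clock output factor, was at 5.55 on oleic acid replicate 3 and between 2.26 and 2.92 on the other 4 arrays. Per2, a repressor of the clock, was at -2.74 and -2.75 with saline and -2.26, -2.55 and -0.56 with oleic acid, with all oleic acid arrays above saline. Arntl, the partner of Clock, was at -0.43 and 0.34 with saline and 0.71, 0.22 and -1.58 with oleic acid, with overlap. Nfil3, a repressor that opposes Dbp, was at 0.20 and 0.37 with saline and 0.33, 0.40 and -1.14 with oleic acid, with overlap, and its level on replicate 3 was the lowest of the 29 arrays in the fit. Npas2, which can replace Clock, was at -2.34 and -3.24 with saline and -2.93, -2.94 and -5.64 with oleic acid, with overlap, the signal being above background on 4 of 5 arrays. Elsewhere in the series Dbp was at 1.13, 1.73 and 5.91 in the saline mice of 1 h and at 5.67 to 6.00 in the oleic acid mice of 1 h. The mice of 1.5 h were at 1.83 to 3.20, those of 3 h and 4 h at 4.36 to 5.14 and those of 18 h at 0.55 to 1.44.

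Of the 14 clock repressors and outputs measured, 9 were above the other 4 arrays on oleic acid replicate 3, and of the 5 activators and genes of their phase, 4 were below. Over all features with 5 values, replicate 3 was above the other 4 arrays for 14.7% and below them for 29.2%. This array had been singled out for its clock genes, so the counts are a description with no test. The 9 repressors and outputs above the other arrays were Dbp, Per2, Per3, Nr1d1, Nr1d2, Ciart, Tef, Hlf and Bhlhe40, and Per1, Cry2, Bhlhe41, Usp2 and Rora were within the range of the other arrays. Per3 was at -2.0 and -2.58 with saline and -2.53, -1.65 and -0.92 with oleic acid, with overlap. Nr1d1 (REV-ERB alpha), which represses Arntl, was at 1.08 and 1.74 with saline and 1.18, 0.44 and 2.87 with oleic acid, with overlap. Its relative Nr1d2 lay at -0.049 and 0.17 with saline and 0.21, -0.43 and 1.41 with oleic acid, with overlap. Tef was at 4.46 and 4.46 with saline and 3.95, 4.09 and 5.22 with oleic acid, with overlap. Hlf lay at 1.19 and 0.72 with saline and 0.41, 0.75 and 1.86 with oleic acid, with overlap. Of the activators, Clock at 0.034, -0.48 and -0.62 on the oleic acid arrays was 0.15 below the lowest of the other arrays on replicate 3. Ciart lay at -1.75 and -1.98 with saline and -2.66, -2.53 and -1.69 with oleic acid, with overlap. Bhlhe40 lay at 1.25 and 0.77 with saline and 0.71, 0.59 and 1.63 with oleic acid, with overlap. For Ciart replicate 3 was only just above the others. Per1 lay at 3.93 and 4.24 with saline and 2.50, 4.05 and 3.73 with oleic acid, with overlap, its lowest level being on oleic acid replicate 1. Cry2 lay at 2.82 and 2.73 with saline and 2.41, 2.43 and 2.72 with oleic acid, with all oleic acid arrays below saline. Bhlhe41 lay at -1.51 and -2.98 with saline and -3.14, -3.23 and -2.76 with oleic acid, with overlap. No clock gene passed in the comparison of both groups. With replicate 3 left out, the difference of Dbp turned from 0.66 to -0.40, that of Nr1d1 from 0.086 to -0.60, that of Arntl from -0.17 to 0.51 and that of Nfil3 from -0.42 to 0.080, and that of Per2 moved from 0.96 to 0.34. The labels give hours since the injection and no time of day.

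**Figure D3:**
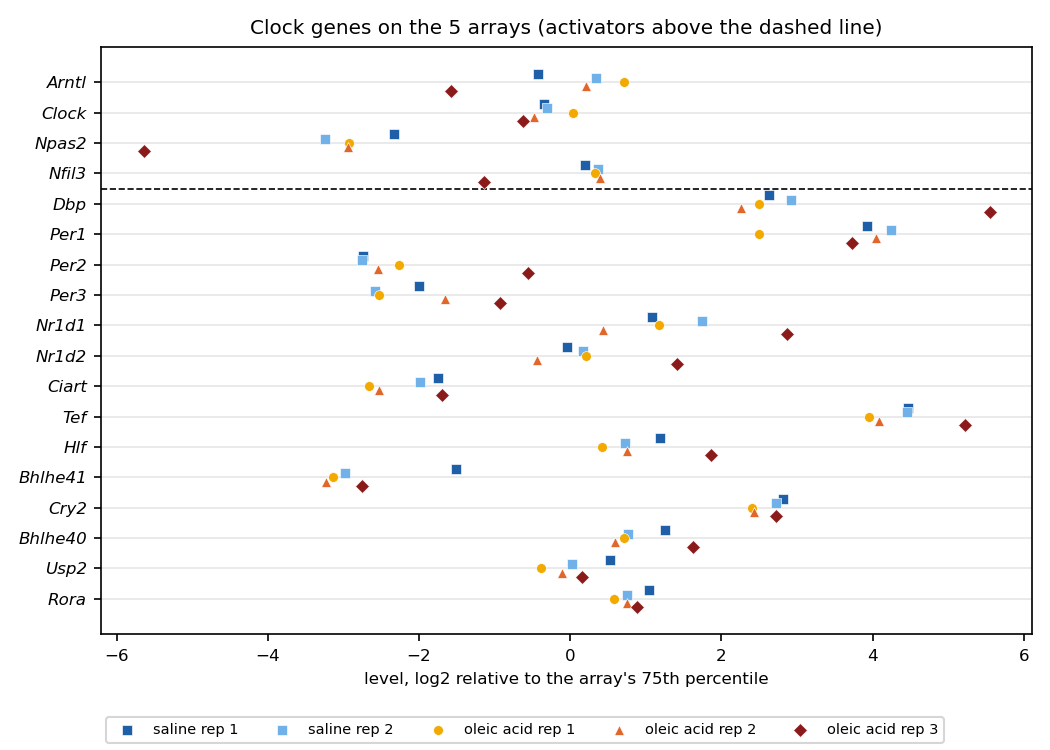
Each row is 1 of 18 clock genes and each point 1 of the 5 arrays of 24 h, as a log2 level less the 75th percentile of that array, with activators and genes of their phase above the dashed line. Oleic acid replicate 3 (diamonds) lies left of the other 4 arrays for Arntl, Clock, Npas2 and Nfil3 and right of them for 9 repressors and outputs, Dbp at 5.55 among them.

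The promoters of Tef, Per3 and Nr1d1, which stood high on replicate 3, are shown because each holds a match to a known clock element, a different one in each. Those of Dbp, Hlf and Nr1d2, which also stood high, held no match, and no promoter was found for Per2 and Bhlhe40, high as well. Matches also lay in the promoters of Per1, Bhlhe41 and Cry2, which were within the range of the other arrays on replicate 3. The windows are the 250 bases before the start of transcription, from RefSeq on GRCm38.p6. The letters searched, on both strands, were CACGTG (the E-box bound by Arntl and Clock), its variant CACGTT, and TTATGTAA (the D-box bound by Dbp, Tef and Hlf, and by Nfil3). Of 32851 promoters, 6.02% held CACGTG, 3.85% held CACGTT and 0.819% held TTATGTAA. Promoters were found for 17 of the clock genes, and CACGTG was found in those of 5 (Bhlhe41, Ciart, Cry1, Per1 and Tef), CACGTT in those of 3 (Cry1, Cry2 and Nr1d1) and TTATGTAA in that of Per3. Tef (chr15:81802423-81802672, plus strand) holds CACGTG 127 bases before the start. Per3 (chr4:151044666-151044915, minus strand) holds the D-box at 205 and 158 bases before the start. Nr1d1 (chr11:98775378-98775627, minus strand) holds the variant 28 bases before the start. Matches are in capitals, and a match is not a measured binding site.
Tef: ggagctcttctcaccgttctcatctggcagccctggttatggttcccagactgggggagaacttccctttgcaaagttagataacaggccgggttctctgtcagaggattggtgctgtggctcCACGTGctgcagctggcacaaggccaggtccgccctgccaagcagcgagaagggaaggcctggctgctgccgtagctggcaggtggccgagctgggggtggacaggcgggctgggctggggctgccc
Per3: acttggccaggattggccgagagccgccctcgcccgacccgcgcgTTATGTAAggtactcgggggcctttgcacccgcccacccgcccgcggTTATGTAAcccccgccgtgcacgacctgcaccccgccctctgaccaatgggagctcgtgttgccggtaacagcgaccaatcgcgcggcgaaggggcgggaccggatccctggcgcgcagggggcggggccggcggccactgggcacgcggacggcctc
Nr1d1: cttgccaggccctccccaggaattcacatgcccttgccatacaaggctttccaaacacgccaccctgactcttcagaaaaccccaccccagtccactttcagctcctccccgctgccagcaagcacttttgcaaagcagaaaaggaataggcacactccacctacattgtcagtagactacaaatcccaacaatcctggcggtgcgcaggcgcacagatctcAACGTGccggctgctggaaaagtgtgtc

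Glucocorticoid-induced genes respond to the stress hormone corticosterone. The median of their 18 members was -0.39 against -0.12 over all features, it was -0.25 after quantile normalization and in the deposited table, and it stayed between -0.45 and -0.35 without any 1 of the 5 arrays. It was -0.16 with the saline arrays of 18 h and 24 h together as controls, those of 18 h lying on another slide. On all oleic acid arrays 7 of the 18 were below and 2 above both saline arrays, against 15.2% and 6.11% of all features. Zbtb16, a zinc finger repressor induced by glucocorticoids, was at 2.57 and 2.78 with saline and 0.36, 0.15 and 2.30 with oleic acid, with all oleic acid arrays below saline, and a difference of -1.74 (95% interval -3.24 to -0.24, unadjusted p = 0.0256). Oleic acid replicates 1 and 2 were over 2 log2 units below saline and replicate 3 was close to it, and the difference was -2.42 without replicate 3. Klf9, a factor under glucocorticoid and clock control, was at 3.59 and 3.32 with saline and 2.75, 2.78 and 2.99 with oleic acid, with all oleic acid arrays below saline, and a difference of -0.62 (95% interval -1.10 to -0.13, unadjusted p = 0.015). Fkbp5, which binds the receptor complex, was at 0.90 and 0.35 with saline and -0.23, -0.26 and 0.41 with oleic acid, with overlap. Tsc22d3 (GILZ) was at 4.52 and 4.69 with saline and 3.65, 4.62 and 3.88 with oleic acid, with overlap. The kinase Sgk1 lay at 1.85 and 2.41 with saline and 2.56, 2.19 and 2.33 with oleic acid, with overlap. Dusp1, a phosphatase that ends MAP kinase signals, went the other way, with 1.93 and 2.40 with saline and 3.26, 3.00 and 2.82 with oleic acid, with all oleic acid arrays above saline, and a difference of 0.86 (95% interval 0.20 to 1.52, unadjusted p = 0.0131).

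Immediate early genes, which cells turn on within minutes of a stimulus, had a median of 0.069 over 19 members (0.19 after quantile normalization), and 4 of 19 lay higher without overlap (6.11% of all features). The median ran from 0.039 without oleic acid replicate 1 to 0.16 without oleic acid replicate 2. Fos was at -1.04 and -1.08 with saline and 0.86, -0.63 and 1.02 with oleic acid, with all oleic acid arrays above saline, and a difference of 1.48 (95% interval 0.26 to 2.70, unadjusted p = 0.0203). Its oleic acid replicates 1 and 3 were well above saline and replicate 2 only little. Junb was at -2.11 and -2.01 with saline and -1.19, -1.44 and -0.80 with oleic acid, with all oleic acid arrays above saline, and a difference of 0.92 (95% interval -0.016 to 1.85, unadjusted p = 0.0537). Fosb was at -1.29 and -1.06 with saline and -1.21, -1.26 and -0.80 with oleic acid, with overlap. Jun lay at 6.02 and 5.38 with saline and 5.39, 5.78 and 5.18 with oleic acid, with overlap. None passed.

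Cytokines and chemokines are the signals that bring leukocytes into an injured lung. None of 13 cytokines was free of overlap between the groups at 24 h. Of 23 chemokines 3 were higher and 5 lower without overlap, against 6.11% and 15.2% of all features. Il1b was at 0.69 and 0.99 with saline and 1.71, 1.61 and 0.48 with oleic acid, with overlap. Tnf lay at -3.35 and -3.56 with saline and -3.15, -3.63 and -2.82 with oleic acid, with overlap. Il6 was at -5.71 and -4.95 with saline and -3.90, -5.20 and -5.65 with oleic acid, with overlap, the signal being above background on 1 of 5 arrays. Csf2 was at -0.93 and -1.46 with saline and -1.57, -1.79 and -1.44 with oleic acid, with overlap. Il11 lay at -2.42 and -2.76 with saline and -2.74, -2.76 and -2.68 with oleic acid, with overlap. Lif was at -2.12 and -3.36 with saline and -3.33, -4.28 and -4.14 with oleic acid, with overlap, the signal being above background on 4 of 5 arrays. Cxcl1, Cxcl2 and Cxcl5 attract neutrophils. Cxcl1 lay at -3.58 and -6.40 with saline and -3.56, -4.83 and -4.74 with oleic acid, with overlap, the signal being above background on 2 of 5 arrays. Cxcl2 lay at -5.52 and -6.24 with saline and -6.57, -6.03 and -6.76 with oleic acid, with overlap, the signal being above background on 0 of 5 arrays. Cxcl5 lay at -2.42 and -3.19 with saline and -1.94, -2.34 and -6.56 with oleic acid, with overlap, the signal being above background on 4 of 5 arrays. Cxcl10, an interferon-induced chemokine for T cells, was at -2.74 and -2.03 with saline and -0.52, -1.98 and -1.16 with oleic acid, with all oleic acid arrays above saline, and a difference of 1.17 (95% interval 0.011 to 2.33, unadjusted p = 0.0481). Cxcl13, which attracts B cells, was at -3.70 and -3.96 with saline and -2.04, -2.83 and -2.79 with oleic acid, with all oleic acid arrays above saline. The epithelial chemokine Cxcl14 lay at 5.45 and 5.21 with saline and 4.94, 4.96 and 4.95 with oleic acid, with all oleic acid arrays below saline. The median was -0.087 over the chemokines and -0.12 over the cytokines, and both were above 0 in the deposited table and with median centring, the cytokines also after quantile normalization. Without 1 array the chemokine median ran from -0.29 without saline replicate 2 to 0.07 without oleic acid replicate 2, and it was also above 0 without saline replicate 1. The cytokine median ran from -0.21 without saline replicate 2 to 0.23 without saline replicate 1, and it was also above 0 without oleic acid replicate 2 or 3.

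Neutrophils and monocytes enter an injured lung from the blood, and alveolar macrophages live in its airspaces. The median of 25 neutrophil markers was -0.014 (0.094 after quantile normalization and 0.14 in the deposited table), with 3 higher and 3 lower without overlap. Over all features 6.11% lay higher and 15.2% lower without overlap. Without 1 array the neutrophil median ran from -0.19 without saline replicate 2 to 0.30 without oleic acid replicate 3, and it was 0.15 without saline replicate 1. S100a8, a calcium-binding protein that neutrophils carry in bulk, was at 4.79 and 4.75 with saline and 5.39, 5.39 and 4.59 with oleic acid, with overlap. Its partner S100a9 was at 7.82 and 7.29 with saline and 7.67, 8.06 and 6.90 with oleic acid, with overlap. The receptor Cxcr2 lay at 0.27 and -0.62 with saline and 0.17, 0.15 and -0.86 with oleic acid, with overlap. For these 3 genes replicate 3 was the lowest of the oleic acid arrays. Retnlg was at 3.38 and 2.70 with saline and 2.35, 2.56 and 1.60 with oleic acid, with all oleic acid arrays below saline. Clec4e lay at -1.87 and -1.13 with saline and -0.56, -0.76 and -1.08 with oleic acid, with all oleic acid arrays above saline. Slfn4 lay at -3.24 and -2.16 with saline and -0.84, -2.14 and -2.14 with oleic acid, with all oleic acid arrays above saline. The mean level of the 25 markers was 1.58 and 1.25 with saline and 1.64, 1.84 and 1.12 with oleic acid. Monocyte markers had a median of 0.12 (from 0.016 without saline replicate 1 to 0.26 without saline replicate 2) and 4 of 14 lay higher without overlap, among them the receptor Ccr2 at -0.19 and -0.23 with saline and 0.41, 0.0024 and 0.21 with oleic acid, with all oleic acid arrays above saline. F13a1, a clotting factor subunit, lay at 1.32 and 1.5 with saline and 2.16, 1.93 and 1.58 with oleic acid, with all oleic acid arrays above saline. Vcan was at -1.62 and -1.66 with saline and -1.78, -1.36 and -1.91 with oleic acid, with overlap. Chil3 lay at 6.59 and 6.56 with saline and 6.45, 6.34 and 6.07 with oleic acid, with all oleic acid arrays below saline. Alveolar macrophage markers had a median of -0.15 (from -0.17 without saline replicate 1 to -0.015 without saline replicate 2), which was 0.024 after quantile normalization and also above 0 in the deposited table and with median centring, and 5 of 16 lay lower without overlap. Marco, a scavenger receptor, was at 3.41 and 3.04 with saline and 3.01, 3.02 and 2.48 with oleic acid, with all oleic acid arrays below saline. Krt79 lay at 2.96 and 2.54 with saline and 2.21, 2.24 and 2.06 with oleic acid, with all oleic acid arrays below saline. Siglecf lay at -0.76 and -0.44 with saline and -0.39, -0.96 and -0.16 with oleic acid, with overlap. Ear1 lay at 1.69 and 2.51 with saline and 2.45, 2.14 and 2.45 with oleic acid, with overlap. Car4, which capillary endothelium also makes, lay at 4.46 and 4.36 with saline and 3.77, 4.13 and 3.95 with oleic acid, with all oleic acid arrays below saline.

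Of interferon response genes, which cells turn on against viruses, a majority lay higher. Of 28 members 20 had a difference above 0 and 5 lay higher without overlap, against 35.8% and 6.11% of all features. Their median was 0.13 (0.064 without saline replicate 1, 0.03 without oleic acid replicate 1 and 0.28 without saline replicate 2). Mx1, an antiviral GTPase, was at -2.34 and -2.11 with saline and -1.63, -1.68 and -1.62 with oleic acid, with all oleic acid arrays above saline, and a difference of 0.58 (95% interval -0.02 to 1.18, unadjusted p = 0.0573). Irf7, a factor that amplifies the response, was at -0.99 and -0.84 with saline and -0.54, -0.46 and -0.63 with oleic acid, with all oleic acid arrays above saline. Ifit1 lay at -0.95 and -0.85 with saline and -0.44, -0.74 and -0.82 with oleic acid, with all oleic acid arrays above saline. Isg15 lay at 3.91 and 3.33 with saline and 3.39, 3.60 and 3.19 with oleic acid, with overlap. Oas3 lay at -2.70 and -3.03 with saline and -1.78, -1.98 and -2.81 with oleic acid, with overlap. The mean level of the list was 1.13 on oleic acid replicate 1 and between 0.65 and 0.80 on the other arrays. Acute phase genes had a median of 0.28, which was 0.024 without saline replicate 1. With the saline arrays of 18 h and 24 h together as controls it turned to -0.16. Saa3, the serum amyloid A made by lung cells, was at 0.41 and -1.08 with saline and 1.99, 0.39 and 2.33 with oleic acid, with overlap, and a difference of 1.90 (95% interval 0.017 to 3.79, unadjusted p = 0.0481). Saa1 was at 1.30 and -0.39 with saline and 1.63, 0.40 and 2.29 with oleic acid, with overlap. Saa2 lay at -0.30 and -2.95 with saline and -0.082, -2.90 and 0.75 with oleic acid, with overlap. In all 3, oleic acid replicates 1 and 3 were high and replicate 2 was low, and saline replicate 1 was above saline replicate 2. Ceruloplasmin (Cp) was at 4.12 and 4.09 with saline and 4.40, 4.39 and 4.37 with oleic acid, with all oleic acid arrays above saline. Complement factor B (Cfb) lay at 1.98 and 2.72 with saline and 2.77, 2.61 and 2.85 with oleic acid, with overlap.

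The list of NF-kappaB feedback genes, which holds Ptgs2 and Icam1 beside inhibitors such as Nfkbia, had a median of 0.15 over 14 members. This median was -0.05 without saline replicate 1. Ptgs2 (cyclooxygenase 2) was at -2.54 and -3.00 with saline and -1.60, -2.09 and -2.36 with oleic acid, with all oleic acid arrays above saline, and a difference of 0.75 (95% interval 0.16 to 1.34, unadjusted p = 0.0152). Nfkbia, the main inhibitor of NF-kappaB, was at 5.75 and 6.01 with saline and 5.39, 5.61 and 5.16 with oleic acid, with all oleic acid arrays below saline. Nfkbie was at -0.48 and -0.52 with saline and -0.38, -0.72 and -0.65 with oleic acid, with overlap. Nfkbiz lay at -0.72 and -1.42 with saline and -0.36, -0.77 and -0.57 with oleic acid, with overlap. Icam1, the endothelial ligand of leukocyte integrins, was at -0.33 and 1.41 with saline and 1.42, 1.01 and 1.59 with oleic acid, with overlap. Its difference of 0.80 was -0.07 without saline replicate 1 and 1.67 without saline replicate 2. Selp, the selectin of activated endothelium and platelets, was at -3.38 and -3.19 with saline and -2.23, -2.81 and -2.19 with oleic acid, with all oleic acid arrays above saline. Vcam1 was at 2.52 and 2.71 with saline and 2.90, 2.49 and 2.69 with oleic acid, with overlap. Icam2 was at 6.35 and 6.35 with saline and 5.95, 6.24 and 6.01 with oleic acid, with all oleic acid arrays below saline.

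**Figure D4:**
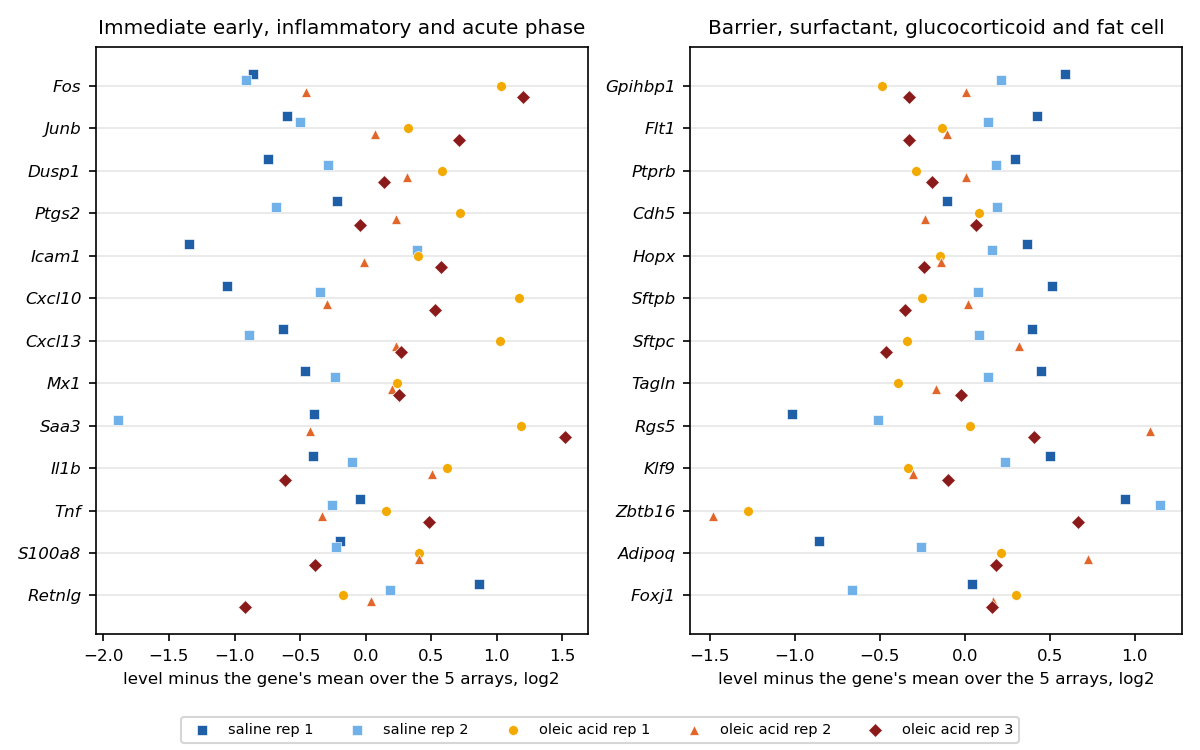
Each point is 1 array, as the level of a gene minus its mean over the 5 arrays of 24 h (log2), for genes of inflammation (left) and of barrier, surfactant, glucocorticoid response and fat cells (right). Saa3 shows oleic acid replicates 1 and 3 high and replicate 2 low, Icam1 shows saline replicate 1 alone at the low end, and Zbtb16 shows oleic acid replicate 3 beside the saline arrays.

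The capillary endothelium is the layer that oleic acid reaches first. Of 28 endothelial markers, 11 lay lower without overlap and none higher, and 5 had an unadjusted p under 0.05, all lower. Over all features 15.2% lay lower without overlap, and 3.18% were lower at an unadjusted p under 0.05. The median of the markers was -0.18 against -0.12 over all features, -0.03 after quantile normalization and 0.0013 with median centring. Flt1, a receptor for VEGF, was at 5.53 and 5.24 with saline and 4.96, 5.00 and 4.77 with oleic acid, with all oleic acid arrays below saline, and a difference of -0.47 (95% interval -0.79 to -0.15, unadjusted p = 0.00636). Gpihbp1, which holds lipoprotein lipase on capillaries, was at 6.02 and 5.64 with saline and 4.94, 5.44 and 5.10 with oleic acid, with all oleic acid arrays below saline, and a difference of -0.67 (95% interval -1.12 to -0.21, unadjusted p = 0.00615). Ptprb, a phosphatase that acts on the receptor Tek and on VE-cadherin, was at 6.35 and 6.24 with saline and 5.77, 6.07 and 5.86 with oleic acid, with all oleic acid arrays below saline. VE-cadherin itself (Cdh5) was at 4.38 and 4.67 with saline and 4.57, 4.25 and 4.55 with oleic acid, with overlap. Pecam1 lay at 1.42 and 2.10 with saline and 2.18, 1.98 and 2.46 with oleic acid, with overlap. Tek lay at 1.48 and 2.08 with saline and 2.49, 2.00 and 2.56 with oleic acid, with overlap. These medians include the shift of all genes given above.

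Smooth muscle and pericyte markers had a median of -0.35 over 14 genes, and it was -0.15 in the deposited table. Of the 14 genes, 7 were lower and 1 higher without overlap, against 15.2% and 6.11% of all features. Tagln, an actin-binding protein of smooth muscle, was at 6.33 and 6.01 with saline and 5.48, 5.71 and 5.85 with oleic acid, with all oleic acid arrays below saline, and a difference of -0.49 (95% interval -0.89 to -0.082, unadjusted p = 0.0211). Acta2, smooth muscle actin, was at 5.64 and 5.59 with saline and 5.20, 5.41 and 5.57 with oleic acid, with all oleic acid arrays below saline. Myh11 lay at 0.90 and 1.14 with saline and 1.09, 1.22 and 1.73 with oleic acid, with overlap. The pericyte proteoglycan Cspg4 lay at 1.65 and 1.45 with saline and 0.85, 1.36 and 1.09 with oleic acid, with all oleic acid arrays below saline. The higher member was Rgs5, given above. Fibroblast and collagen genes had a median of 0.067, and it was -0.21 without saline replicate 1, -0.03 without saline replicate 2 and also below 0 without oleic acid replicate 1. Col1a1 was at 4.09 and 4.22 with saline and 4.09, 4.30 and 4.47 with oleic acid, with overlap. Col1a2 lay at 6.34 and 6.39 with saline and 6.06, 6.35 and 6.37 with oleic acid, with overlap. Col3a1 lay at 4.75 and 5.55 with saline and 5.19, 5.44 and 5.39 with oleic acid, with overlap. Lum, a proteoglycan of collagen fibrils, was at -0.76 and -0.41 with saline and 0.05, -0.069 and 0.28 with oleic acid, with all oleic acid arrays above saline. Pdgfra, a receptor of lung fibroblasts, was at 3.11 and 2.96 with saline and 2.79, 2.36 and 2.48 with oleic acid, with all oleic acid arrays below saline. Inmt was at 9.10 and 8.77 with saline and 8.48, 8.42 and 8.47 with oleic acid, with all oleic acid arrays below saline.

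The alveolar epithelium consists of type 1 and type 2 cells. Of 25 alveolar type 2 markers 9 lay lower and 1 higher without overlap, against 15.2% and 6.11% of all features. Their median was -0.21, and it was 0.027 after quantile normalization and 0.11 in the deposited table. Sftpb, the surfactant protein needed for the surface film, was at 8.51 and 8.08 with saline and 7.74, 8.01 and 7.65 with oleic acid, with all oleic acid arrays below saline, and a difference of -0.49 (95% interval -0.92 to -0.066, unadjusted p = 0.0258). Sftpc was at 10.32 and 10.01 with saline and 9.59, 10.25 and 9.46 with oleic acid, with overlap. Sftpa1 lay at 7.95 and 8.11 with saline and 7.90, 7.87 and 7.75 with oleic acid, with all oleic acid arrays below saline. Ctsh, a protease that processes surfactant proteins, was at 6.29 and 6.40 with saline and 5.87, 6.08 and 5.93 with oleic acid, with all oleic acid arrays below saline. Acoxl lay at 4.40 and 4.12 with saline and 3.53, 3.88 and 3.57 with oleic acid, with all oleic acid arrays below saline. Type 1 cells form the gas exchange surface. Of 14 alveolar type 1 markers 5 lay lower without overlap, with a median of -0.19 that was -0.019 after quantile normalization and 0.038 in the deposited table. The type 1 median ran from -0.28 without saline replicate 1 to -0.10 without saline replicate 2 and the type 2 median from -0.28 without oleic acid replicate 2 to -0.15 without oleic acid replicate 3. Hopx was at 7.04 and 6.84 with saline and 6.53, 6.54 and 6.44 with oleic acid, with all oleic acid arrays below saline, and a difference of -0.44 (95% interval -0.80 to -0.077, unadjusted p = 0.0201). Ager was at 5.79 and 5.91 with saline and 5.47, 5.81 and 5.62 with oleic acid, with overlap. Pdpn lay at 4.50 and 4.70 with saline and 4.30, 4.28 and 4.40 with oleic acid, with all oleic acid arrays below saline. The water channel Aqp5 lay at 6.29 and 5.93 with saline and 5.60, 5.85 and 5.81 with oleic acid, with all oleic acid arrays below saline. Gprc5a lay at 7.53 and 7.50 with saline and 6.92, 7.31 and 7.08 with oleic acid, with all oleic acid arrays below saline.

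Genes that clear alveolar fluid and seal the barrier had medians near the shift of all genes, -0.10 for 19 transport and -0.10 for 24 junction genes, and both were above 0 with median centring and in the deposited table. Without 1 array the transport median ran from -0.17 without oleic acid replicate 2 to -0.049 without oleic acid replicate 1 and the junction median from -0.15 without oleic acid replicate 3 to -0.039 without oleic acid replicate 2. Scnn1a, a subunit of the epithelial sodium channel, was at 5.20 and 5.04 with saline and 4.79, 4.87 and 4.99 with oleic acid, with all oleic acid arrays below saline. Scnn1b lay at 1.95 and 2.32 with saline and 2.38, 2.36 and 2.39 with oleic acid, with all oleic acid arrays above saline. Fxyd1, a regulator of the sodium pump, lay at 6.24 and 5.77 with saline and 5.31, 5.87 and 5.38 with oleic acid, with overlap. The cotransporter Slc12a2 lay at 3.15 and 2.99 with saline and 2.86, 2.78 and 2.41 with oleic acid, with all oleic acid arrays below saline. Gja5, the gap junction protein of arterial endothelium, was at 2.44 and 2.40 with saline and 1.64, 1.87 and 1.26 with oleic acid, with all oleic acid arrays below saline, and a difference of -0.83 (95% interval -1.69 to 0.026, unadjusted p = 0.0566). Ctnnd1 lay at 4.42 and 4.36 with saline and 4.18, 4.14 and 4.23 with oleic acid, with all oleic acid arrays below saline. Cldn3 lay at 4.22 and 4.34 with saline and 4.24, 4.40 and 4.18 with oleic acid, with overlap. Cldn4 lay at -1.06 and -2.85 with saline and -2.22, -2.34 and -2.33 with oleic acid, with overlap. Cldn1 was at -4.14 and -4.84 with saline and -3.99, -6.03 and -4.05 with oleic acid, with overlap, the signal being above background on 2 of 5 arrays. Ciliated cell markers had a median of 0.063 (-0.018 without saline replicate 2) and 7 of 25 lay higher without overlap (6.11% of all features). Foxj1, the master factor of motile cilia, was at 2.06 and 1.36 with saline and 2.32, 2.18 and 2.18 with oleic acid, with all oleic acid arrays above saline, and a difference of 0.52 (95% interval 0.078 to 0.96, unadjusted p = 0.0235). Rsph4a lay at -1.10 and -1.05 with saline and -0.60, -0.68 and -0.26 with oleic acid, with all oleic acid arrays above saline. Spag6l lay at -0.23 and 0.085 with saline and 0.66, 0.13 and 0.57 with oleic acid, with all oleic acid arrays above saline. Tppp3 was at 5.68 and 5.66 with saline and 5.36, 5.52 and 5.33 with oleic acid, with all oleic acid arrays below saline. Ccdc113 lay at 2.51 and 2.07 with saline and 1.93, 2.10 and 1.96 with oleic acid, with overlap.

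Lipid genes were of interest because a fatty acid had been injected. Cholesterol synthesis genes had a median of 0.20 (0.26 in the deposited table and from 0.13 without oleic acid replicate 1 to 0.25 without saline replicate 2). Of these genes 19 of 25 were above 0 and 6 of 25 lay higher without overlap, against 35.8% and 6.11% of all features. Hmgcs1, an early enzyme of the pathway, was at 3.32 and 3.68 with saline and 3.76, 3.73 and 3.45 with oleic acid, with overlap. Sqle lay at 2.01 and 2.08 with saline and 2.37, 2.44 and 1.95 with oleic acid, with overlap. Hsd17b7 lay at -2.19 and -2.13 with saline and -1.74, -1.72 and -1.24 with oleic acid, with all oleic acid arrays above saline. Tm7sf2, on the lower side, lay at 1.35 and 1.04 with saline and 0.70, 0.92 and 0.53 with oleic acid, with all oleic acid arrays below saline. PPAR targets and genes of fatty acid oxidation had a median of 0.12 with 25 of 34 above 0, and it was -0.031 without saline replicate 1. Cpt1a, which admits fatty acids into mitochondria, was at 2.08 and 2.45 with saline and 2.72, 2.54 and 2.77 with oleic acid, with all oleic acid arrays above saline. Ehhadh lay at -2.69 and -1.89 with saline and -1.52, -2.05 and -1.37 with oleic acid, with overlap. Vnn1 lay at -0.44 and -0.20 with saline and 0.26, -0.25 and 0.11 with oleic acid, with overlap. Pdk4 was at -0.91 and -1.01 with saline and -0.20, -0.58 and -1.41 with oleic acid, with overlap. Angptl4, an inhibitor of lipoprotein lipase, lay at 4.09 and 3.71 with saline and 4.07, 4.12 and 2.28 with oleic acid, with overlap. Angptl4 was lower on oleic acid replicate 3 than on the other 4 arrays. Fatty acid synthesis genes had a median of -0.13, which was 0.01 in the deposited table and also above 0 with median centring. It ran from -0.16 without oleic acid replicate 2 to -0.044 without oleic acid replicate 1. Scd1, which makes oleic acid from stearic acid, was at 5.70 and 5.63 with saline and 5.18, 5.19 and 5.45 with oleic acid, with all oleic acid arrays below saline. Acaca, the first enzyme of the pathway, was at 3.92 and 3.65 with saline and 3.29, 3.63 and 3.20 with oleic acid, with all oleic acid arrays below saline. Fads2 was at -1.38 and -1.10 with saline and -0.71, -1.01 and -0.40 with oleic acid, with all oleic acid arrays above saline. Fasn lay at 0.90 and 1.09 with saline and 0.98, 1.12 and 1.01 with oleic acid, with overlap. Scd2 lay at 5.11 and 5.48 with saline and 5.22, 4.86 and 5.20 with oleic acid, with overlap.

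Genes of other tissues and of blood varied between the arrays. Fat cell genes had a median of 0.50 over 14 genes, with 12 above 0, and it was 0.23 without saline replicate 1 and 0.086 with the saline arrays of 18 h and 24 h together as controls. Adiponectin (Adipoq) was at 0.14 and 0.75 with saline and 1.22, 1.73 and 1.19 with oleic acid, with all oleic acid arrays above saline. Plin1 lay at -1.69 and -1.50 with saline and -1.17, -0.22 and -1.21 with oleic acid, with all oleic acid arrays above saline. Cfd lay at 3.70 and 4.56 with saline and 4.56, 4.86 and 4.93 with oleic acid, with overlap. Lipe was at -1.41 and -1.79 with saline and -0.83, -1.19 and -1.47 with oleic acid, with overlap. Aqp7 lay at -2.89 and -3.68 with saline and -3.95, -3.24 and -4.12 with oleic acid, with overlap. The mean level of 13 fat cell genes was 0.66 and 0.87 with saline and 1.08, 1.41 and 0.92 with oleic acid, and it was 0.20 to 1.67 on the 3 oleic acid arrays of 18 h. Platelet markers had a median of 0.29, which was 0.69 without saline replicate 1 and -0.21 without saline replicate 2. Beside Ppbp, Pf4 was at 3.47 and 2.65 with saline and 3.70, 3.21 and 3.22 with oleic acid, with overlap. Itga2b lay at -1.41 and -2.34 with saline and -1.42, -1.35 and -1.73 with oleic acid, with overlap. Gp5 lay at -2.17 and -2.64 with saline and -1.76, -1.69 and -2.01 with oleic acid, with all oleic acid arrays above saline. Clec1b lay at 0.45 and -0.066 with saline and 0.95, 0.59 and 0.42 with oleic acid, with overlap. Mesothelial markers had a median of 0.19 (0.004 without saline replicate 1). Lrrn4 was at -0.12 and -0.17 with saline and 0.55, 0.19 and 0.64 with oleic acid, with all oleic acid arrays above saline. Upk3b was at 0.71 and 1.72 with saline and 1.68, 1.59 and 1.87 with oleic acid, with overlap. Msln lay at 4.77 and 5.05 with saline and 4.67, 5.01 and 4.96 with oleic acid, with overlap. Krt18 lay at 6.01 and 5.66 with saline and 5.40, 5.62 and 5.54 with oleic acid, with all oleic acid arrays below saline.

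B cell markers had a median of -0.29 over 14 genes, -0.24 after quantile normalization, and it ran from -0.45 without oleic acid replicate 2 to -0.12 without oleic acid replicate 1. Cd79b, a chain of the B cell receptor, was at 4.89 and 4.86 with saline and 3.81, 4.64 and 4.26 with oleic acid, with all oleic acid arrays below saline, and a difference of -0.64 (95% interval -1.22 to -0.059, unadjusted p = 0.0325). Cd79a was at 2.89 and 2.95 with saline and 1.91, 3.02 and 2.23 with oleic acid, with overlap. Cd22 lay at 0.27 and 0.13 with saline and -0.39, 0.25 and -0.58 with oleic acid, with overlap. Jchain, of antibody-secreting cells, was at -0.85 and -0.73 with saline and -0.23, 0.16 and -0.28 with oleic acid, with all oleic acid arrays above saline. The mean level of the list was -0.17 on oleic acid replicate 1 and 0.43 on replicate 2. Heart muscle genes had mean levels of 2.16 and 2.50 with saline and 2.09, 2.86 and 2.21 with oleic acid, and 9 red cell genes 3.69 and 2.95 with saline and 2.91, 3.83 and 2.74 with oleic acid. Oleic acid replicate 2 was highest for both lists. The part of these tissues in the other differences was not tested.

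Ribosomal protein genes, which every cell expresses at a high level, were lower in 19 of 20, with a median of -0.26 and 7 lower without overlap (15.2% of all features), but the median was 0.027 after quantile normalization and -0.004 in the deposited table. Rps4x was at 6.68 and 6.38 with saline and 5.86, 6.31 and 6.04 with oleic acid, with all oleic acid arrays below saline. Rpl18 lay at 7.69 and 7.38 with saline and 6.87, 7.35 and 7.02 with oleic acid, with all oleic acid arrays below saline. Rpl3 was at 6.77 and 6.80 with saline and 6.51, 6.75 and 6.70 with oleic acid, with all oleic acid arrays below saline. Rpl4 lay at 4.75 and 4.84 with saline and 4.75, 4.65 and 4.78 with oleic acid, with overlap. Rpl5, the member on the higher side, lay at 3.64 and 4.49 with saline and 4.59, 4.19 and 4.63 with oleic acid, with overlap. Genes of the unfolded protein response had a median of -0.21, and it was -0.079 after quantile normalization and -0.033 with median centring. Hspa5 (BiP), the chaperone of the endoplasmic reticulum, was at 5.91 and 5.64 with saline and 5.50, 5.44 and 4.94 with oleic acid, with all oleic acid arrays below saline. Its partner Hsp90b1 lay at 6.54 and 6.07 with saline and 5.80, 5.82 and 5.44 with oleic acid, with all oleic acid arrays below saline. Atf4, the factor of the integrated stress response, was at 5.91 and 5.62 with saline and 5.28, 5.51 and 5.11 with oleic acid, with all oleic acid arrays below saline. Ddit3 (CHOP) lay at 0.29 and 0.47 with saline and 0.25, 0.24 and 0.44 with oleic acid, with overlap. Ppp1r15a lay at 4.06 and 3.50 with saline and 3.17, 3.55 and 3.19 with oleic acid, with overlap. The remaining lists (respiratory chain, heat shock, Nrf2, hypoxia, cell cycle, T cell, natural killer, club and goblet cell, endothelial adhesion, stratified epithelium and thymus genes) had medians between -0.18 and 0.14.

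Several medians moved with the choice of saline arrays. With those of 18 h and 24 h together as controls the median over all features was -0.058. The saline arrays of 18 h lay on another slide than those of 24 h and were of another time. Dbp was at 0.55 and 0.90 on them, against 2.63 and 2.92 on the saline arrays of 24 h. Slide and time therefore changed together with the controls, and their part cannot be told apart. Nearer 0 than with the 24 h controls alone were the medians of several lists, at -0.024 for endothelial, -0.11 for smooth muscle and pericyte, -0.067 for type 1, -0.11 for type 2, -0.14 for B cell and -0.041 for ribosomal protein genes, while those of the unfolded protein response stayed at -0.21 and fatty acid synthesis genes were at -0.18. Of the lists with a median above 0, cholesterol synthesis genes were at 0.068, PPAR targets at 0.051, NF-kappaB feedback genes at 0.072, mesothelial markers at 0.084, platelet markers at 0.086 and interferon response genes at 0.31. The neutrophil median was then 0.19 and the cytokine median 0.024.

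**Figure D5:**
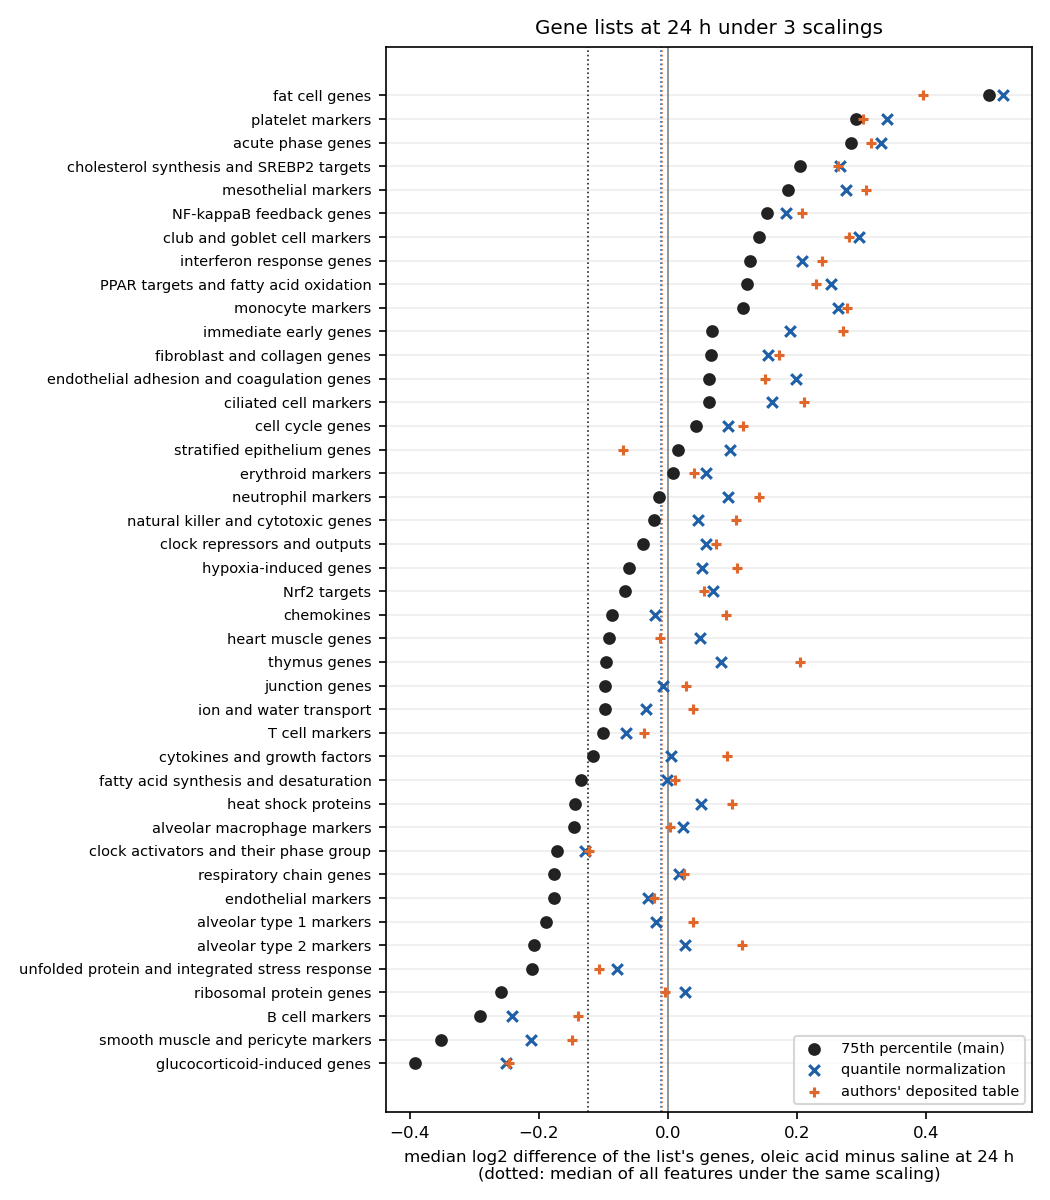
Points give the median log2 difference, oleic acid minus saline at 24 h, of the genes of each of 42 lists under the 75th percentile scaling (black), quantile normalization (blue) and the authors' deposited table (orange), with dotted lines at the median of all features under the same scaling. With all 5 arrays and the 75th percentile scaling, fat cell genes lie at 0.50 and glucocorticoid-induced genes at -0.39, and the alveolar type 2 list lies left of 0 in black only.

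Some genes differed widely among the 3 oleic acid mice. Among genes above background on all 5 arrays that spanned at least 2 log2 units over the oleic acid arrays, the odd array was replicate 1 for 21, replicate 2 for 21 and replicate 3 for 9. Hbq1a, a globin, was at -1.30 and -2.44 with saline and -2.47, 1.64 and -2.64 with oleic acid, with overlap. Gata4, a factor of heart and mesothelium, was at -2.31 and -2.01 with saline and 1.25, -1.83 and -2.21 with oleic acid, with overlap. Cd163l1, a scavenger receptor of gamma delta T cells, was at -2.50 and -1.79 with saline and -2.59, 1.23 and -2.64 with oleic acid, with overlap. Qtrt2 at 0.90, -2.99 and -2.59, Snora74a at 0.42, -2.62 and -3.46 and Ppp1r12b at 0.21, -2.92 and -3.20 were high on replicate 1. Piwil4 at -2.69, 0.059 and -3.37 and Dpp6 at -2.33, 1.04 and -2.43 were high on replicate 2. The urinary protein gene Mup20, one of a family of near-identical copies, was at 1.03, -2.28 and -0.97. With Saa2 these were the 10 genes of widest range, chosen for it and with no test.

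Whether the difference at 24 h departed from the earlier ones was tested against the mean difference at 1, 1.5, 3 and 4 h, from 9 saline and 10 oleic acid arrays. No feature passed in limma (0%), the lowest adjusted p was 0.276, and 462 features (1.58%) had an unadjusted p under 0.05, of which 191 (0.653%) were higher and 271 (0.926%) lower. Both comparisons use the same 5 arrays of 24 h, so they are not independent. The count was 5, 4 and 2 without oleic acid replicates 1, 2 and 3. It also rose without either saline array of 24 h, where 1 saline mouse of 24 h is left and the count is not given here. Dusp1 had a difference of 0.86 at 24 h and -0.16 over 1 to 4 h. Fbxl2 had 0.90 at 24 h and -0.10 early, and Ap2b1 0.88 and 0.036. Cyp1a1, a detoxifying enzyme of the aryl hydrocarbon receptor pathway, had -1.19 at 24 h and 0.83 early, and Ccl8, a monocyte chemokine, -0.61 and 0.40. Cst8 had -1.19 and -0.014, and Mapk10 -0.68 and -0.033. Zfp623, Rnf217, Ccdc150, Ppbp, Tmem170b, Smarcc2, Rdh13, Trim63 and Adamts10 also had larger values at 24 h than early, and Spink4, Chtf18, Olfr521, Etl4, Ribc2, Cacna1i, Fam162b and Phf7 smaller ones, with unadjusted p from 0.00441 to 0.0245.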

How the data were processed

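Total lung RNA of 31 mice was hybridised to 1-colour Agilent arrays, 1 mouse per array. Intensity values, the processed signals of Agilent Feature Extraction 10.5.1.1 (per the submitters' processing notes), were deposited as scanner output on mm9, per the file headers. The authors also deposited a table of log2 values, whose normalization is not given in the sources used here; it served as an alternative.

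From the scanner files, log2 processed signal minus the 75th percentile of each array was computed. Control spots and outlier spots were left out. A probe was kept where all arrays of some group flagged it well above background, and the brightest probe stood for a gene. The features were tested with limma 3.58.1 in R 4.3.3 (lmFit, eBayes) over 12 group means on 29 arrays with Benjamini-Hochberg adjustment at 0.05. Left out were 2 arrays, oleic acid 1.5 h replicate 3 and 3 h replicate 2, whose spike-in slope lay outside 0.8 to 1.2. Named are the 12 genes of smallest p in each direction that were above background on all 5 arrays and did not overlap, 12 in each direction for the comparison with 1 to 4 h, 5 features in each direction seen in 1 group only (those with a symbol), the 10 genes of widest range among the oleic acid arrays, and the first 3 and the 3 of smallest p of each list described. Some genes that meet this rule are not reported here. The members, lists and tests were chosen with earlier results of these data known. Whether the mice of a group were treated or bred together is not given. The p-values therefore measure only the spread between the mice of a group, pooled over the 12 groups on 29 arrays. The fit was checked on simulated data. Alternatives in scaling, filter, arrays, slide, pairing and moderation were tried.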

Additional observations from a re-analysis of the deposited data

How the results depend on the processing

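At 24 h, 4 features had an adjusted p under 0.05 in limma. The count was 0 with all 31 arrays, with the 8 arrays of 1 slide, with the 5 arrays of 24 h, in the deposited table, with a filter on all 5 arrays, with slide as a fixed term and at an adjusted p under 0.01. It was 1 with normexp and with trend and robust moderation, and 2 after quantile normalization, with no filter and with array weights; 0, 1 and 2 of these were among the 4. The fit with the replicate block gave 2. The correlations of same-numbered arrays were -0.16 and -0.46, and with 2 saline arrays, whose deviations mirror each other, they cannot tell whether the numbers pair the arrays. Leaving out 1 array gave 4 to 142, and for the comparison with 1 to 4 h, where no feature passed, 2 to 110. The upper end of each range came without saline replicate 1. That fit leaves 1 saline mouse of 24 h, so its counts are not read as a result. Without 1 oleic acid array the counts were 4 to 9, and 2 to 5 for the comparison with 1 to 4 h. The comparison with 1 to 4 h gave 1 with no filter and 1 with saline of 18 h and 24 h as controls. The cause of these changes was not tested. Medians of 24 of 42 lists changed sign under some scaling and 31 under some setting, as did 237 and 427 of 717 list genes. A single array per lung, 2 in the saline group, limits the precision.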
